A study of Homo sapiens with 2 samples.

Results

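The genes described here encode products through which the ERK pathway limits its own output, together with ETS transcription factors and a small adaptor whose transcripts follow ERK activity. They were taken by symbol and comprise the phosphatases DUSP4, DUSP5 and DUSP6, the inhibitors SPRY2, SPRY4, SPRED1 and SPRED2, the transcription factors ETV4 and ETV5, and PHLDA1. All 10 genes were on the array, through 28 probe sets, out of 19775 genes with a probe set of their own. The rule uses no measured value, but the genes were proposed with earlier results of these arrays known, so the counts below describe them and are no independent evidence of a direction. Expression was compared in the cultured head and neck cancer line OECM1, between cells stably transfected with the pmCherry-let7i vector, which makes the microRNA let-7i, and cells that received the pmR-mCherry vector without an insert. Both were grown in RPMI with fetal bovine serum, and the labels do not say whether either line was 1 clone or a pool. Each group had 1 array, so the differences below have no replicate check, no p-value and no error between cultures, and the arrays' number limits the precision. As the RNA came from whole cultures, a change in the share of cells that express a gene and a change in the amount per cell cannot be told apart.

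ERK signalling runs from growth factor receptors through RAS, RAF and MEK kinases to ERK, which phosphorylates transcription factors in the nucleus. Among the genes that ERK induces are its own brakes. DUSP proteins remove the activating phosphates from ERK, and Sprouty (SPRY) and SPRED proteins act further up, on the signal between receptors, RAS and RAF. ETV4 and ETV5 belong to the PEA3 group of ETS factors, are induced when ERK is active, and carry part of its transcriptional output. Levels of these transcripts are widely read as a record of ERK activity in epithelial tumours.

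The microRNA that separates the groups and the start regions of the DUSP and Sprouty genes with the largest ratios are shown first, so that the letters behind the names can be seen. In let-7i the capitals mark the seed, bases 2 to 8, which pairs with target messenger RNAs. In the promoters, chr12:89352452-89352751 for DUSP6 and chr13:80341077-80341376 for SPRY2 (GRCh38.p14, minus strand, from RefSeq), they mark GGAA or its complement TTCC, the core letters that ETS factors recognise.
hsa-let-7i-5p: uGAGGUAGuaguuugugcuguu
DUSP6 promoter: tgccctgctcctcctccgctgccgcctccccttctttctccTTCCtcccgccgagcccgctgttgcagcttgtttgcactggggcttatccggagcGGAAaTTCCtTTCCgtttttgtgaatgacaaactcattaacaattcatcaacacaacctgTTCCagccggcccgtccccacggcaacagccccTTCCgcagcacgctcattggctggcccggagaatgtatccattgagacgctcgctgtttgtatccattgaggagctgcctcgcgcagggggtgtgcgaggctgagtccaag
SPRY2 promoter: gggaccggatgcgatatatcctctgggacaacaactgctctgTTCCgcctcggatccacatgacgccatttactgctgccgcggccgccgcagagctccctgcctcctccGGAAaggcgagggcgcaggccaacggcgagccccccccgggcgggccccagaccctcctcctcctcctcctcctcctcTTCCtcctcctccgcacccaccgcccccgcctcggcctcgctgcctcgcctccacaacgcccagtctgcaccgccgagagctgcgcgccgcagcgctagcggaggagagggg
From the promoter table, with 300 bases per entry (250 before the start and 50 after it), entries of 6 of the 10 genes were analysed here. All 6 had GGAA on either strand, with 3 to 6 matches each, but so did 95.5% of the 35116 promoters in the table, whose median was 3 matches. DUSP6 and SPRED2 had 6 matches each, PHLDA1 had 5, SPRY4 had 4, and SPRED1 and SPRY2 had 3. The longer CCGGAA, which contains that core, was in the promoters of SPRY2 and PHLDA1, and in 17.2% of all promoters. The AP-1 motif TGANTCA, the CRE motif TGACGTCA and the CArG box, each searched on both strands, were in none of the 6, against 7.71%, 1.85% and 1.29% of all promoters. The G and C share of the 6 ran from 58.3% to 76.3%, beside a median of 58.7% over all promoters. For SPRY2 and SPRED2, which had several entries, the one at the gene's annotated start was used, and the lone entry of SPRY4 is not at that start. Of the entries set aside, that of SPRED2 had 2 TGANTCA matches and those of SPRY2 had 0.

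The ERK feedback genes were higher with let-7i nearly throughout, mostly by less than 2-fold. Of the 28 probe sets, 24 reached the floor on both arrays and 4 on neither. The floor was the median signal of each array, 88.0 for empty vector cells and 79.5 for let-7i cells, and probe sets below it on both arrays were given no ratio. Of the 24 measured probe sets, 23 were higher with let-7i and 1 was lower, whereas 46.2% of the 23919 probe sets above the floor on at least 1 array were higher. All 10 genes were higher by their brightest probe set, beside 48.7% of 12284 genes. The median log2 ratio (let-7i over empty vector, centred on the median of all genes measured on both arrays) was 0.34 over the 24 member probe sets, a ratio of 1.27, and -0.02 over all 21442 measured probe sets. The middle part of the members, from the lower to the upper quartile, ran from 0.26 to 0.68, and that of all measured probe sets from -0.22 to 0.17. The members' probe sets are not independent, since several read the same transcript and all share the same 2 arrays.

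Few of the members reached the 2-fold mark. At least 2-fold higher were 3 of the 24 probe sets, both measured ones of DUSP6 and 1 of ETV5, a share of 12.5% beside 0.982% of all tested probe sets. At least 1.5-fold higher were 7, or 29.2%, beside 4.11% of all. None was at least 2-fold lower, beside 1.39% of all. Counted by the brightest probe set of a gene, 1 member (DUSP6) passed 2-fold upward, beside 1.06% of all genes, and 0 downward, beside 1.38%. Of the 6 members with 2 or more measured probe sets, 5 had all of them higher with let-7i, beside 23.2% of 5807 such genes, and DUSP4 was the exception.

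**Figure D1:**
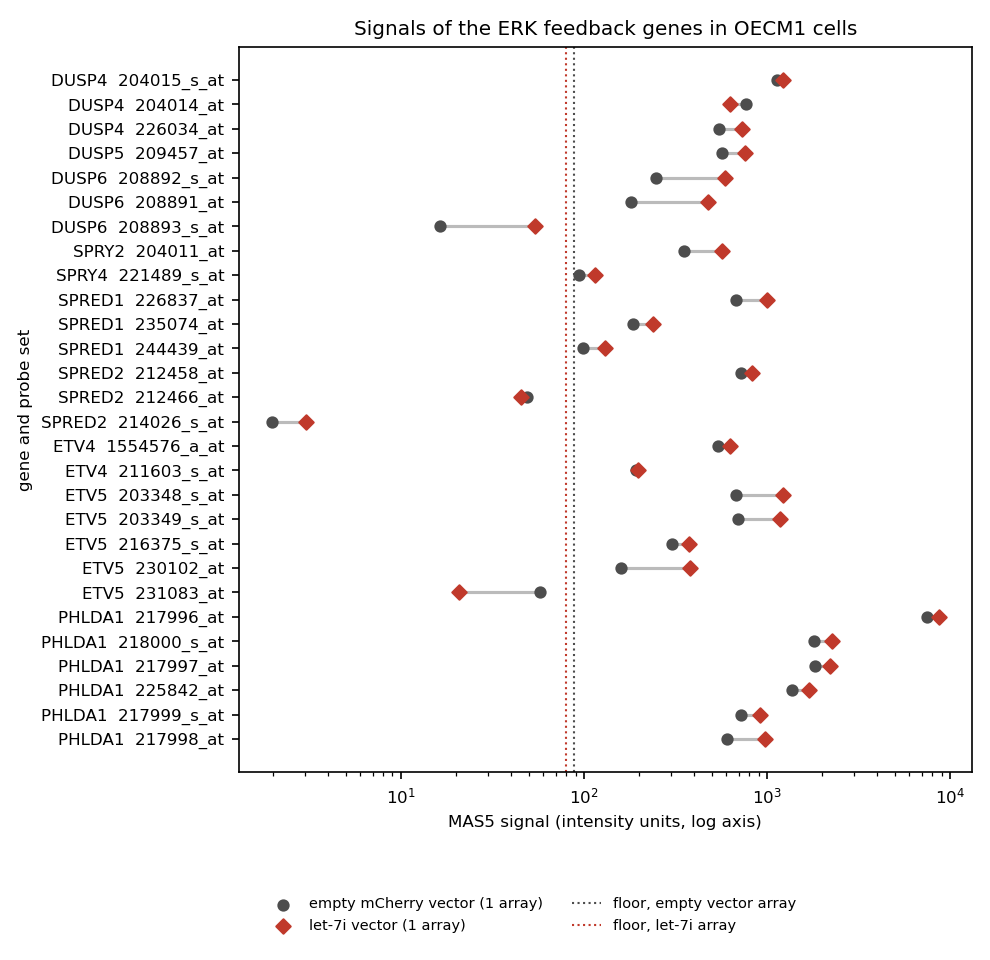
MAS5 signal of each of the 28 probe sets in empty vector cells (grey circles) and in let-7i cells (red diamonds), on a log axis, with each array's floor as a dotted line. In 23 of the 24 probe sets to the right of the floors the let-7i signal is the higher one, and the gap is widest for DUSP6 and for 1 probe set of ETV5.

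Measurement error could be gauged only from different probe sets of the same gene. The spread of 1 probe set, taken from how far the log2 ratios of a gene's 2 brightest probe sets lay apart in 5807 genes, had an SD of 0.25 (log2 units), reaching 0.34 among the 1452 dimmest genes and 0.15 among the 1452 brightest. This spread covers differences between probe sets and holds nothing of the variation between cultures. Of the 24 member probe sets, 17 were higher with let-7i by over 1 SD at their own brightness (beside 18.5% of all measured probe sets). Lower by over 1 SD was 1, and the share of all measured probe sets lower by that much was not counted. By over 2 SD 9 were higher, beside 5.92% of all, and by over 3 SD 5 were, beside 1.96% of all. Those 5 were both measured DUSP6 probe sets and 3 of ETV5.

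Among the phosphatases, DUSP6 had the largest ratios. DUSP6 is a cytoplasmic phosphatase with a strong preference for ERK and is itself induced by ERK. Probe set 208892_s_at read 247 in control cells (empty vector) and 588 in let-7i cells, a ratio of 2.38. Probe set 208891_at read 181 and 479, a ratio of 2.64, and signals are given in this order from here on. The log2 ratios of 1.25 and 1.40 differ by less than the probe noise at this brightness (0.34), and 99.6% and 99.7% of all measured probe sets lay below them. The remaining DUSP6 probe set, 208893_s_at, stayed under both floors, with 16.3 and 54.1. Its direction is not measured.

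DUSP5, a nuclear phosphatase for ERK, had 1 probe set with signals of 571 and 756. Its log2 ratio of 0.40 was 1.58 times the probe noise. DUSP4, a nuclear phosphatase that acts on ERK and related kinases, gave no single direction. Its signals were 1130 and 1228 in 204015_s_at (log2 ratio of 0.12), 543 and 729 in 226034_at (0.42), and 769 and 628 in 204014_at (-0.30). The last was the lone measured member probe set that was lower with let-7i, at 1.16 times the probe noise. The 3 DUSP4 ratios span 0.72 on the log2 scale, so neither a rise nor a fall can be read for this gene.

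SPRY2 and SPRY4 are Sprouty proteins, which are recruited near receptors and dampen the signal to RAS and RAF. SPRY2 had signals of 354 and 566 in its 1 probe set, a 1.60-fold higher level. Its log2 ratio of 0.67 was 2.65 times the probe noise and higher than those of 97.3% of all measured probe sets. SPRY4 lay close to the floor with 93.7 and 115. Its log2 ratio of 0.29 was smaller than the probe noise of 0.34, so for SPRY4 no difference was detectable at this signal, although lowess and quantile scaling gave 0.43 and 0.42.

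The SPRED proteins resemble Sprouty proteins in their C-terminal part and bring neurofibromin, a RAS inhibitor, to the membrane. SPRED1 was higher in all 3 probe sets. Its brightest, 226837_at, had signals of 676 and 1000 (log2 ratio of 0.56, 2.70 times the probe noise). The other two were dimmer, with 186 and 238 in 235074_at (0.35) and 98.4 and 131 in 244439_at (0.41), each just above 1 SD of the noise. The 3 SPRED1 ratios span 0.21, less than the noise of a dim probe set. When the floor was raised to the 65th percentile, the empty vector signal of 235074_at lay below it, leaving a log2 ratio of at least 0.04. Probe set 244439_at was below that floor on both arrays and gave no ratio. At that floor only the brightest SPRED1 probe set was measured on both arrays. SPRED2 was measured by 1 of its 3 probe sets, with 722 and 830. Its log2 ratio of 0.20 was below 1 SD of the probe noise. The other SPRED2 probe sets were below the floor, with 48.9 and 45.1 in 212466_at and 1.98 and 3.03 in 214026_s_at.

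The ETS factors ETV4 and ETV5 are close relatives, and their transcripts gave different ratios. ETV5 was higher in 4 of 4 measured probe sets. Signals were 677 and 1230 in 203348_s_at (a 1.81-fold higher level) and 691 and 1174 in 203349_s_at (1.69-fold). They were 302 and 376 in 216375_s_at (1.24-fold) and 160 and 382 in 230102_at (2.39-fold). The log2 ratios run from 0.32 to 1.25, a span of 0.94. Under that raised floor 230102_at had only a lower bound, a log2 ratio of at least 0.73, since its empty vector signal lay below the floor. The largest and the smallest both come from dim probe sets, and both bright ones lie at 0.86 and 0.76, 4.12 and 3.66 times the noise at their brightness. The fifth probe set, 231083_at, stayed under both floors, with 57.7 and 20.9, and has no ratio. Its direction is not measured at these floors.

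ETV4 differed little. Signals were 543 and 625 in 1554576_a_at and 192 and 197 in 211603_s_at. Its log2 ratios of 0.20 and 0.03 were both within 1 SD of the probe noise. Whether ETV4 and ETV5 differ in response was not tested, since 1 array per group gives no error for either.

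PHLDA1, an adaptor-like protein with a pleckstrin homology-like domain, had the largest number of measured probe sets, and all 6 were higher with let-7i. The brightest, 217996_at, had signals of 7514 and 8661, a 1.15-fold higher level. Probe sets 218000_s_at (1804 and 2264), 217997_at (1822 and 2211), 225842_at (1368 and 1686) and 217999_s_at (725 and 913) had log2 ratios between 0.28 and 0.33. Probe set 217998_at, with 602 and 973, was the highest at 0.69, and 2.70 times the probe noise. The ratios of PHLDA1 were therefore of the same sign in all 6 probe sets, from 1.15 to 1.61, and only 217998_at was past 1.5-fold.

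**Figure D2:**
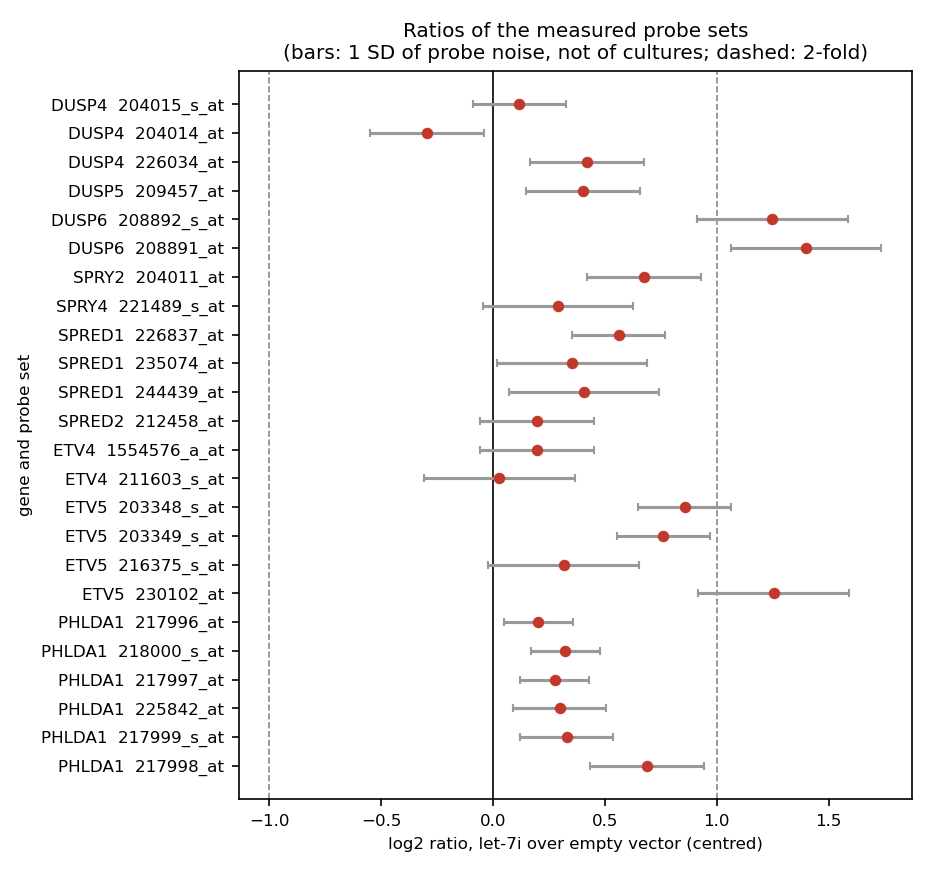
Log2 ratio (let-7i over empty vector, centred) of each of the 24 measured probe sets, with bars of 1 SD of probe noise at that brightness and dashed lines at 2-fold. Both DUSP6 probe sets and 1 of ETV5 pass the upper line, and 1 DUSP4 probe set lies on the lower side. ETV4, SPRED2, SPRY4, DUSP4 probe set 204015_s_at and ETV5 probe set 216375_s_at stay within 1 SD of 0.

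Across the members the size of the ratio had no common level. The genes' brightest probe sets ran from 0.12 (DUSP4) to 1.25 (DUSP6), with a median of 0.35. DUSP6, ETV5, SPRY2 and SPRED1 were the highest in that order, and DUSP5 and SPRY4 followed with 0.40 and 0.29. PHLDA1, ETV4, SPRED2 and DUSP4 lay between 0.12 and 0.20. Neighbours in this order lay closer together than the probe noise of their difference, also DUSP6 and ETV5, which were 0.39 apart with a noise of 0.40. No order of signal levels between genes is given, since probe sets differ in their affinity.

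**Figure D3:**
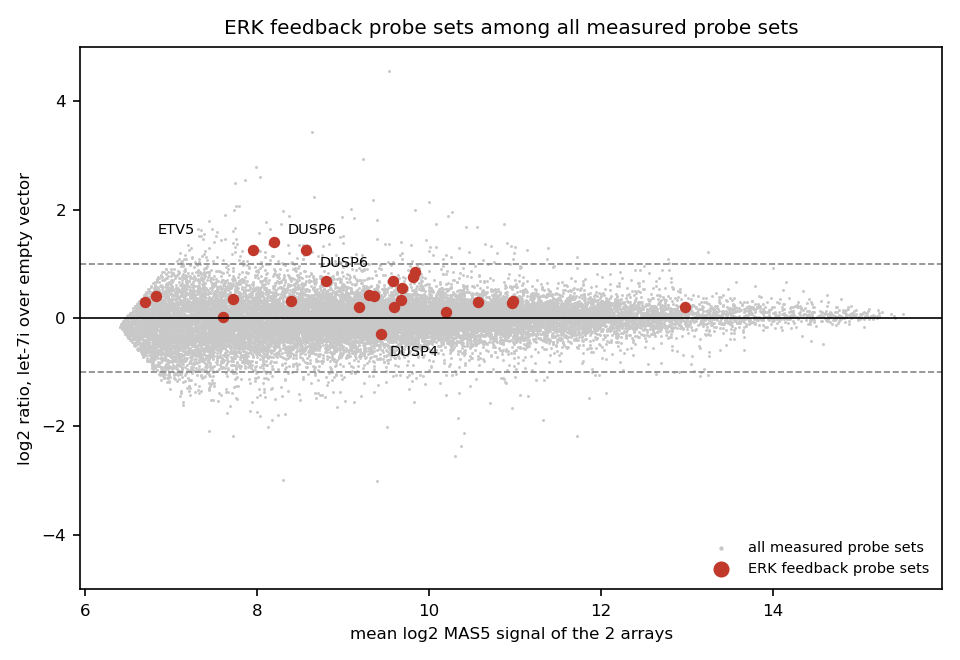
Log2 ratio (let-7i over empty vector) against the mean log2 MAS5 signal of both arrays for all 21442 measured probe sets (grey) and the 24 ERK feedback probe sets (red), with dashed lines at 2-fold. The red points sit above 0 at all brightness levels except 1 of DUSP4, and the 3 above 2-fold lie among the dimmer signals, where the grey points also spread most.

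Genes of the ERK cascade itself were split between both directions. Of the 14 cascade genes analysed here, from adaptors to the kinases that ERK activates, 13 were measured, 5 higher and 8 lower by their brightest probe set, none of these past 2-fold, beside 48.7% of all genes higher. The median log2 ratio was -0.06 beside -0.01 over all genes, and -0.0059 with probe sets averaged. MAPK3, which encodes ERK1, had signals of 914 and 628 in its 1 measured probe set, which can match several transcripts (log2 ratio of -0.55). GAB1, a docking protein below receptors, had 479 and 332 (-0.53), with 4 measured probe sets between -0.97 and -0.17, and a dim one, 1560382_at (161 and 46.6), was at least 2.04-fold lower. SOS1, an exchange factor that loads RAS, had 848 and 715 (-0.25), with 4 probe sets between -0.48 and -0.21. MAP2K1, which encodes the ERK kinase MEK1, had 2068 and 2667 (0.36) in 1 probe set.

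Relatives of the feedback genes lay on both sides. Of 13 paralogues, 12 were measured, 8 higher and 4 lower, none past 2-fold by the brightest probe set, beside 48.7% of all genes higher. Their median log2 ratio of 0.20 became 0.13 both without shared probe sets and with probe sets averaged. ETV1, the remaining member of the PEA3 group, had signals of 245 and 395 (0.69), but its 4 probe sets ran from 0.04 to 0.69. DUSP8, a phosphatase for stress kinases, had 105 and 158 (0.59) near the floor and 0.13 in its other probe set. DUSP7, an ERK phosphatase of the same group as DUSP6, had 503 and 640 (0.34), with 0.47 in its other one. DUSP10, which acts on JNK and p38 rather than ERK, had 1315 and 976 (-0.43), and both its probe sets were lower.

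Other transcripts that ERK signalling induces were looked at beside the members. Of the 17 analysed here, 15 were above the floor on at least 1 array, 11 higher and 4 lower, beside 48.7% of all genes higher. The median was 0.24, and 1 gene passed 2-fold upward, beside 1.06% of all genes, and 0 downward. FOSL1, an AP-1 subunit, had 3953 and 7372 (log2 ratio of 0.90). IER3, a stress-inducible survival protein, had 6062 and 8878 (0.55), and ERRFI1, an inhibitor of the EGF receptor, had 1861 and 2674 (0.52). HBEGF, a ligand of that receptor, had 59.3 with the empty vector, under the floor, and 187 with let-7i, at least 2.12-fold higher. EMP1, an epithelial membrane protein, went the other way with 5548 and 3305 (-0.75), and its 5 probe sets lay between -0.95 and -0.38. FOS and EREG were below the floor on both arrays.

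**Figure D4:**
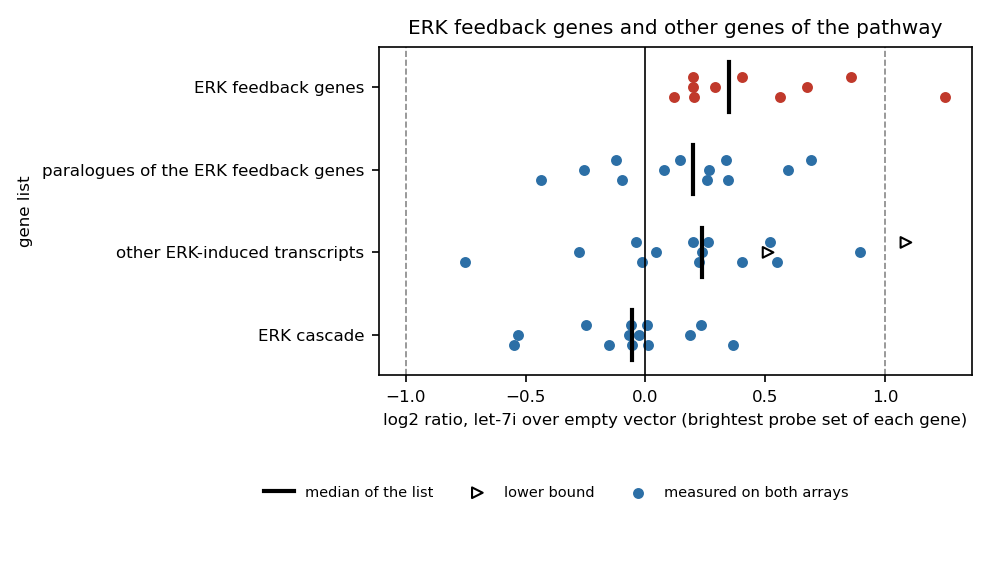
Log2 ratio of each gene's brightest probe set (let-7i over empty vector) in 4 gene lists, with triangles for lower bounds, black bars for the median and dashed lines at 2-fold. The ERK feedback genes all lie above 0 with a median of 0.35, while the ERK cascade is centred on -0.06.

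Markers were set beside these results. Of the squamous epithelial markers, CDH1 (6785 and 5090) and EPCAM (10912 and 6690) were high on both arrays and lower with let-7i, while the basal keratins KRT5 and KRT14 were below the floor on both, and KRT17, KRT6A and TP63 were not analysed here. The summed signal of the 4 epithelial markers was 17738 and 11797. Sums here and below include markers under the floor on both arrays. Of 6 fibroblast markers 2 were above the floor, DCN and COL1A1, both higher with let-7i, and the sum was 661 and 867. Of 4 leukocyte markers analysed here 1 was above the floor (CD3E), with a sum of 251 and 210. CD3E alone had 173 and 90.4 (log2 ratio of -0.94). Of 4 endothelial markers 1 was above the floor (PECAM1), with a sum of 412 and 465. The 3 measured probe sets of PECAM1 ran from -0.28 to 0.22. The part of these markers in the ratios of the ERK feedback genes was not tested.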

How the data were processed

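Total RNA of OECM1 cells was measured as biotin-labelled cRNA, per the labels' protocols, on 1 array for each of 2 transfections. The authors deposited signal intensities on a linear scale. They come from MAS5, per the submitters' processing notes, and neither a version nor a setting is given in the sources used here. Both arrays had a trimmed mean of 500.1 (2% cut at each end), so a difference in total RNA per cell would not show.

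Of 54675 probe sets, the 41097 with 1 platform symbol were used, and the 10 members' symbols matched RefSeq (GRCh38.p14) through their Entrez IDs. Signals below an array's 50th percentile were set to it, which turns the ratio into a lower bound. Log2 ratios were centred by 0.0036, the median over 11140 genes, each by its brightest probe set. Size thresholds of 2-fold and 1.5-fold replace tests. Named genes are all members and, from each pathway list, the 4 largest absolute log2 ratios measured on both arrays and any bound past 2-fold. Members and lists were chosen with earlier results of these data known. Recovery of known ratios and the centring were tested on simulated data without noise, for probe sets well above the floor. Bounds, member counts and the probe noise were not tested that way. Alternatives were no centring, lowess (fraction 0.3, 3 iterations) or quantile scaling, floors at the 25th and 65th percentile, dropping shared probe sets, averaging probe sets, genes or probe sets measured on both arrays only, and 1.5-fold and 3-fold thresholds. Python 3.11.15, NumPy 2.4.6, pandas 2.3.3, SciPy 1.17.1, statsmodels 0.14.6 and Matplotlib 3.10.9 were used. Some genes of the pathway list are not reported here.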

Additional observations from a re-analysis of the deposited data

How the results depend on the processing

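The median log2 ratio of the 10 genes was 0.35, and 0.35 to 0.42 over the alternatives that kept all 10. It was 0.39 over the 9 genes above the floor at the 65th percentile, and 0.50 over the 8 left without probe sets that can match several transcripts, where ETV4 and SPRY4 drop out. The count of member probe sets higher with let-7i was 23 of 24 without centring, with lowess and with quantile scaling. Beside these counts, 46.8%, 49.6% and 49.6% of all tested probe sets were higher, in that order. With the floor at the 25th percentile the members' count was 24 of 27, beside 47.1% of all. At the 65th it was 20 of 21, beside 47.5%, and without shared probe sets 13 of 14, beside 46.9%. These settings for that count were chosen after seeing the data. At least 2-fold higher were 3 probe sets, but 7 at 1.5-fold and 0 at 3-fold, and 2 with the higher floor and without shared probe sets. The lower floor gave 4 higher and 1 at least 2-fold lower, the dim ETV5 probe set 231083_at. Shares of all tested probe sets past a threshold were counted only at the main floor. They were 0.982% for 2-fold higher, 4.11% for 1.5-fold higher and 1.39% for 2-fold lower. The 65th percentile floor lies above the empty vector signals of ETV5 probe set 230102_at, DUSP6 probe set 208891_at and SPRED1 probe set 235074_at. Their log2 ratios at that floor are lower bounds, of at least 0.73, 1.05 and 0.04 in that order. SPRED1 probe set 244439_at, ETV4 probe set 211603_s_at and SPRY4 were below that floor on both arrays. No paired analysis was possible because each group has 1 array.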
